A study of Mus musculus with 45 samples.

Results

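The comparison described here is between homozygous and heterozygous ΔPG mouse embryonic stem cells (ESCs) after retinoic acid (RA). Its members are the 6 RNA-seq samples that the labels give as RA, PG, hom (replicates 1 to 3) and RA, PG, het (replicates 1 to 3), out of 24 RNA-seq samples and 45 samples in the whole series. In ΔPG cells the gene body of the lncRNA 5430416N02Rik and its promoter region were replaced with a puromycin resistance cassette by Cas9, on both alleles in homozygous and on 1 allele in heterozygous cells. The heterozygous controls therefore also carry a deleted allele, the cassette and the history of editing and selection. All cells derive from the ESC line D3 (strain label 129), were grown without feeders in medium with LIF, and were treated with 2 μM RA for 48 h. The labels do not give the clone of each sample, so differences between clones cannot be told apart from those between genotypes, and p-values measure the spread between these samples. The same genes are shown side by side in ΔPG cells kept as ESCs (ES, DMSO for 48 h, 3 homozygous and 3 heterozygous samples) and in RA-treated ΔG cells, in which only the gene body was replaced, by a GFP and puromycin cassette (3 homozygous and 3 heterozygous samples).

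RA binds nuclear receptors that switch on developmental genes, among them the Hox genes, and it drives ESCs out of pluripotency toward neural and extraembryonic endoderm fates. Primitive endoderm is specified by the transcription factors Gata6, Gata4 and Sox17, and its descendants lay down a basement membrane of laminins and type IV collagens. p53, encoded by Trp53, is a transcription factor that binds a response element made of a pair of half-sites. It activates genes of cell cycle arrest, cell death and DNA repair, and also Mdm2, the ubiquitin ligase that degrades it.

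The deleted promoter and p53 consensus matches near some of the p53 targets that were lower are shown first, since the deletion defines the genotypes and the p53 targets are the largest group that changed. The gene 5430416N02Rik lies on the minus strand of chromosome 5 of the mouse genome build NCBIM37 (mm9, the build of the files), at chr5:100849861-100858535, and is annotated as a lincRNA. The 250 bases upstream of its annotated 5′ end, at chr5:100858536-100858785, overlap no annotated gene, hold 60% G or C, and are removed in ΔPG but outside the gene body replaced in ΔG. They are printed 5′ to 3′ on the strand of the gene, with the 18 CpG dinucleotides in capitals.
5430416N02Rik upstream region: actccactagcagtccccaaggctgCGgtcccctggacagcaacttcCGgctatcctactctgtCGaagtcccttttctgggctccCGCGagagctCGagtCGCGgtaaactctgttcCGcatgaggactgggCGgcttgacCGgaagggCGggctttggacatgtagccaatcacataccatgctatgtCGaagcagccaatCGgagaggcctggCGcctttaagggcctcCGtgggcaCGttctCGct

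A search of 2.5 kb on either side of the annotated 5′ end of each gene, for 2 p53 consensus half-sites of 10 bases, 0 or 1 bases apart, with at most 2 mismatches and the central C and G of each half-site intact, covers both strands because the half-site consensus is its own reverse complement. The best match is printed for the 5 targets lower in homozygous cells whose match has at most 1 mismatch and for Eda2r, the target with the largest fall, on the strand of the gene, with the half-sites in capitals. Matches are to a consensus, and no binding was measured.
Cdkn1a: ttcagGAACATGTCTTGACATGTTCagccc
Ccng1: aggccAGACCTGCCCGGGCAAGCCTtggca
Trp53inp1: aggaAAACATGTCCaGGACTAGCCTggacc
Zmat3: gtgagAAACAAGCCCAGGCATGTCTtggga
Psrc1: tccctGGGCATGTTGAGGCATGCCCtgcaa
Eda2r: tgcctGGGCAAGTCCGGGCCTGTGTaaaaa
The Cdkn1a match (chr17:29227873-29227892, plus strand) is centred 42 bases upstream of the annotated 5′ end and has 1 mismatch. The Ccng1 match (chr11:40568964-40568983, minus strand) lies 160 bases upstream with 1 mismatch, and the Trp53inp1 match (chr4:11082259-11082279, plus strand) lies 1309 bases upstream with 0 mismatches and a spacer of 1 base. Those of Zmat3 (chr3:32263253-32263272, minus strand, 0 mismatches), Psrc1 (chr3:108187574-108187593, plus strand, 1 mismatch) and Eda2r (chrX:94571873-94571892, minus strand, 2 mismatches) are in introns, 1338, 826 and 672 bases downstream of the 5′ end.

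The deposited values are regularised log (rlog) values, which are normalised read counts on a log2 scale with the differences of low genes shrunk toward 0. A homozygous minus heterozygous difference of -1 is a fitted value 2-fold lower, with the error given beside it. The values carry no read totals, so the depth of each sample is unknown and no counting error is given. Over the 12010 genes whose rlog values averaged 3 or more, samples of the same genotype correlated at 0.9912 to 0.9972 and samples of different genotype at 0.9876 to 0.9938. The root mean square deviation from the group mean was 0.157 in homozygous replicate 1 and 0.0879 to 0.106 in the other 5 samples, and without it 121 genes were called lower and 57 higher, with 20 p53 targets and 12 endoderm genes lower. Pou5f1, which encodes the pluripotency factor Oct4, had lower values after RA (mean 7.78 in heterozygous RA and 11.79 in heterozygous ES samples), while Crabp2, an RA-induced RA-binding protein, stood at 8.49 against 4.80.

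After RA, 133 genes were lower (0.605% of the 21979 tested) and 53 were higher (0.241%) in homozygous than in heterozygous cells at a limma adjusted p under 0.1 and a difference over 0.5. All 186 had non-overlapping genotypes, which was also so, below and above, for 8.87% and 9.93% of all genes. Among the 12010 genes averaging 3 or more it was so, below and above, for 1594 and 1645. For a gene with non-overlapping genotypes the exact permutation test (two-sided, 3 against 3) gives p = 0.1, the smallest possible here. Without RA more genes were called between the genotypes: 6.29% of genes were lower and 6.87% higher in homozygous ES cells. The ES differences also ran with the GC content of the genes (r = -0.70), described with the p53 targets. The ES calls were not corrected for that trend. Among the 133 genes lower after RA, 35 were also called lower and 2 called higher in ES, and among the 53 higher, 22 were also called higher and 1 lower in ES. Of the 33 gene lists examined, all drawn up with earlier results of these data known, 22 held a called member. The largest runs of called genes were p53 targets and endoderm genes, each in 1 direction, as the plot of list members shows.

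**Figure D1:**
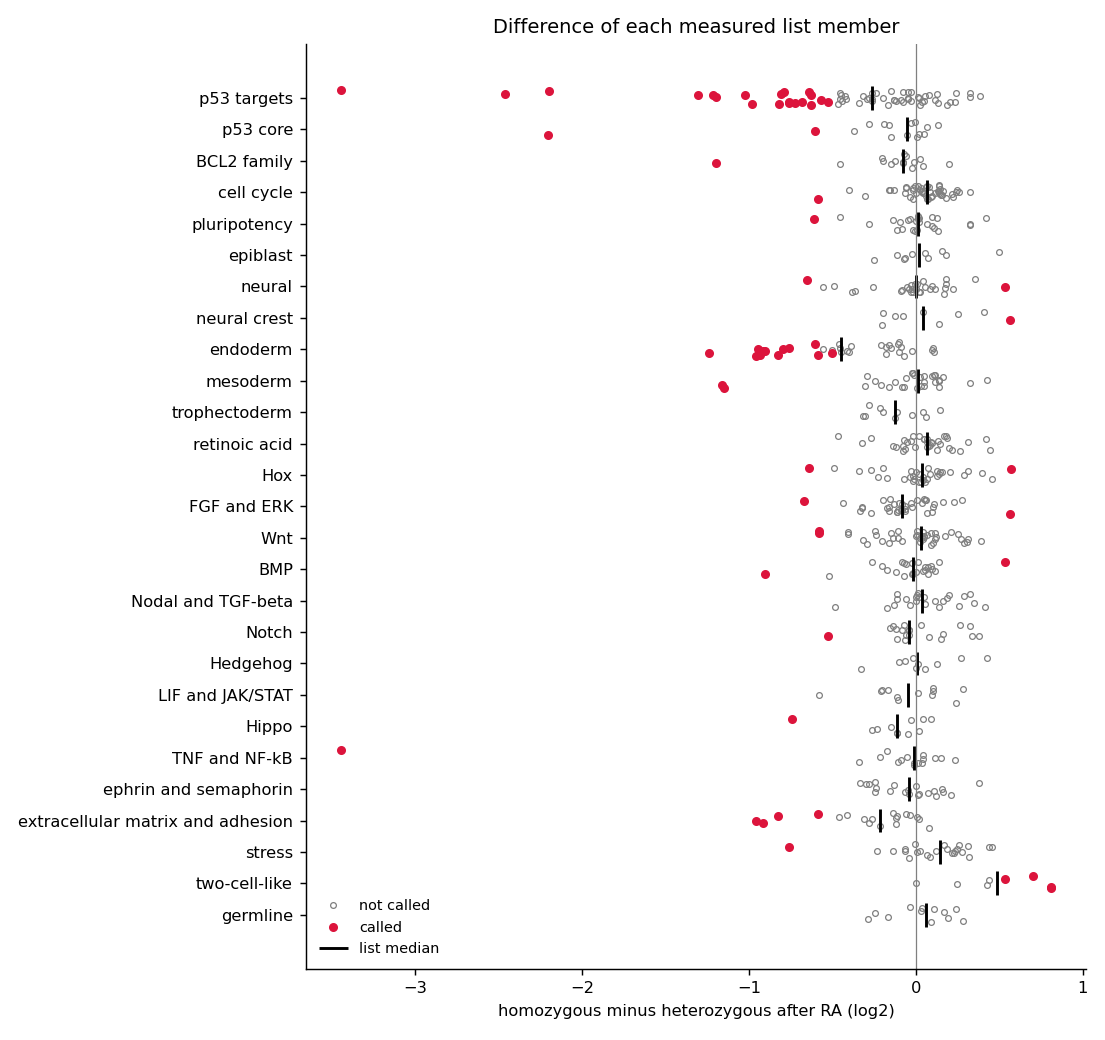
Each circle is the homozygous minus heterozygous difference after RA (x axis, log2) of 1 measured gene of the list named on the y axis; red filled points passed the test, black bars are list medians, n = 3 samples per genotype. The p53 target points reach -3.44 and the endoderm median is -0.45, while most other lists sit around 0.

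5430416N02Rik itself was 4.24, 3.8 and 4.44 in the heterozygous and 2.66, 2.12 and 2.28 in the homozygous samples, a difference of -1.81 ± 0.21 (SE) with adjusted p = 0.00103 by limma. The genotypes did not overlap and lay in the order the labels give. Without counts, the rlog values do not show whether any reads remained in homozygous cells. Its 2 nearest protein-coding genes were not called. Sec31a, a COPII coat subunit on the downstream side, differed by -0.10 ± 0.03 (SE) (adjusted p = 0.191). Lin54, a DNA-binding subunit of the MuvB complex, differed by 0.27 ± 0.07 (SE) (adjusted p = 0.0616, under the size limit). Lin54 was 7.25, 7.27 and 7.25 in the heterozygous and 7.64, 7.54 and 7.40 in the homozygous samples, so each homozygous value was above each heterozygous value. In ES cells the Lin54 difference was 0.62 and was called higher, and the difference between the RA and ES effects was not called (-0.35, adjusted p = 0.0124), and its sign turned when a GC trend in the ES differences, described with the p53 targets, was removed (0.09, adjusted p = 0.534). Of 13 genes with a mean of at least 3 within 1 Mb, 0 were called at these limits, and the differences ran from -0.40 (Agpat9) to 0.27 (Lin54).

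Trp53, on chromosome 11, was the third largest fall. It was 6.06, 6.19 and 5.87 in the heterozygous and 4.06, 3.56 and 3.88 in the homozygous samples. The homozygous samples were thus all below the heterozygous ones, by 4.62-fold on the rlog scale (difference -2.21 ± 0.15 (SE), adjusted p = 3.43e-05). Within 1 Mb of Trp53, 67 other genes had a mean of at least 3, with a median difference of 0.0097, and 1 of them was called, Bcl6b, a transcriptional repressor, at 0.75. Wrap53, the divergent neighbour of Trp53, differed by 0.02 (adjusted p = 0.931). Of 18 close neighbours fixed as a list 0 were called, with Tmem88, a membrane inhibitor of Wnt signalling, at the smallest adjusted p (0.38, adjusted p = 0.0893). The plot of genes around both loci shows Trp53 and 5430416N02Rik as the lowest points of their windows.

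**Figure D2:**
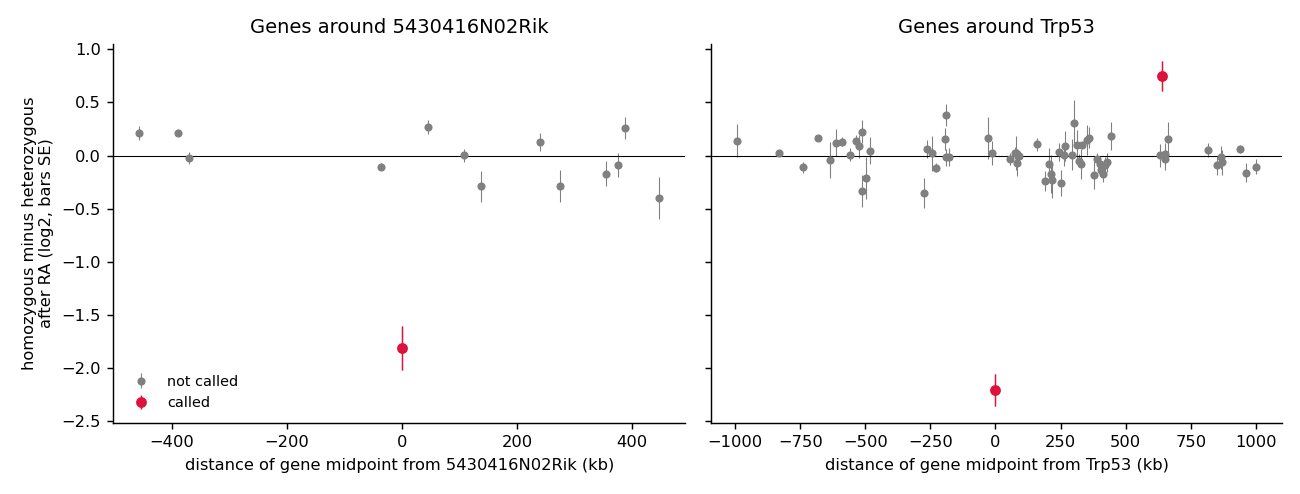
Homozygous minus heterozygous difference after RA (y axis, log2, bars SE, n = 3 per genotype) against distance in kb from 5430416N02Rik (left) and Trp53 (right), for genes averaging 3 or more; red points passed the test. 5430416N02Rik (-1.81) and Trp53 (-2.21) stand at distance 0, and Bcl6b (0.75) is the other called gene.

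Among 15 genes of the p53 core list, Trp53 and Mdm2 were lower and 0 were higher. Mdm2, both a target and the main inhibitor of p53, was 8.12, 8.13 and 8.12 in the heterozygous and 7.68, 7.45 and 7.43 in the homozygous samples, a difference of -0.60 ± 0.07 (SE) (adjusted p = 0.0009). Mdm4, the relative of Mdm2 that also restrains p53, differed by -0.37 (adjusted p = 0.0275), under the size limit. The p53 relatives Trp63 and Trp73 differed by -0.19 and 0.01 and were not called. The kinases upstream of p53, Atm, Atr, Chek1 and Chek2, differed by 0.06, -0.03, 0.13 and -0.16 and were not called.

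Of 66 measured p53 targets, 20 were lower in homozygous cells and 0 were higher, against 0.605% and 0.241% of all genes. In 36 of the 66 the homozygous samples lay wholly below the heterozygous ones, against 8.87% of all genes. The list median was -0.26, beside 0.01 over all genes tested. These counts are not independent evidence of the direction, because the list was drawn up with the fall of Trp53 known. The plot of p53 genes by sample shows the spread.

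**Figure D3:**
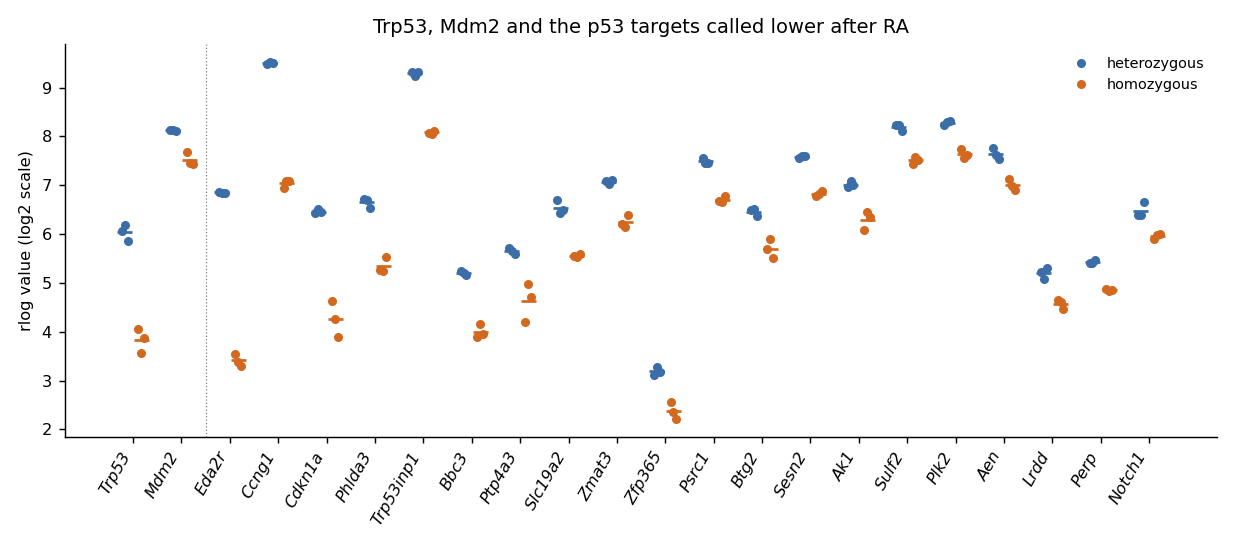
rlog values (y axis, log2 scale) of Trp53, Mdm2 and, right of the dotted line, the 20 p53 targets called lower; each point is 1 RA-treated sample (blue heterozygous, orange homozygous) and each bar a mean of 3. In every gene shown the 3 orange points are below the 3 blue ones.

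Cell cycle arrest genes held 6 of the 20. Cdkn1a, which encodes the CDK inhibitor p21, was 6.43, 6.51 and 6.46 in the heterozygous and 4.64, 4.26 and 3.89 in the homozygous samples, the widest homozygous spread of these 6 genes, with a difference of -2.20 ± 0.16 (SE) (adjusted p = 6.94e-05). Ccng1, cyclin G1, was 9.47, 9.53 and 9.51 in the heterozygous and 6.94, 7.10 and 7.08 in the homozygous samples, which is 5.51-fold lower in homozygous cells (difference -2.46 ± 0.05 (SE), adjusted p = 1.78e-08). Both lie far outside the spread of either genotype. The others were Btg2, an antiproliferative factor (-0.76 ± 0.10 (SE)), Plk2, a polo-like kinase (-0.64 ± 0.05 (SE)), Sesn2, a sestrin that restrains mTORC1 (-0.76 ± 0.05 (SE)), and Psrc1, a microtubule-associated protein (-0.79 ± 0.06 (SE)), with adjusted p-values of 0.00306, 0.000148, 5.59e-05 and 9e-05 by limma. The remaining 6 genes of this role were not called. Of these, Gtse1 (-0.42), Ckap2 (-0.32) and Sfn (-0.28) lay wholly below, Plk3 (0.33) and Sesn1 (0.32) wholly above, and Gadd45a (0.02) overlapped.

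Cell death genes held 8 of the 20. Eda2r, a death-inducing receptor of the TNF receptor superfamily, had the largest change of the whole comparison. It was 6.87, 6.85 and 6.85 in the heterozygous and 3.54, 3.39 and 3.30 in the homozygous samples, 10.9-fold lower in homozygous cells (difference -3.44 ± 0.10 (SE), adjusted p = 1.26e-07). Bbc3, which encodes the BH3-only protein Puma, was 5.24, 5.20 and 5.16 in the heterozygous and 3.88, 4.17 and 3.96 in the homozygous samples (difference -1.20 ± 0.12 (SE), adjusted p = 0.000425). Phlda3, an inhibitor of Akt, was 6.73, 6.71 and 6.54 in the heterozygous and 5.26, 5.25 and 5.54 in the homozygous samples (difference -1.31 ± 0.10 (SE)), and Trp53inp1, a stress protein that acts with p53, was 9.33, 9.25 and 9.31 in the heterozygous and 8.07, 8.06 and 8.12 in the homozygous samples (difference -1.21 ± 0.04 (SE)). In these 4 genes the gap between genotypes was several times the range within either. Zmat3, an RNA-binding protein (-0.82), the nuclease Aen (-0.63), Lrdd, which encodes Pidd (-0.63), and the membrane protein Perp (-0.57) were also lower.

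The other 6 called targets belong to metabolism and to signalling. The adenylate kinase Ak1 differed by -0.72 ± 0.09 (SE) and the thiamine transporter Slc19a2 by -0.98 ± 0.09 (SE). The phosphatase Ptp4a3 was 5.72, 5.65 and 5.59 in the heterozygous and 4.2, 4.97 and 4.72 in the homozygous samples, so that homozygous replicate 1 was the lowest, and its difference was -1.02 ± 0.17 (SE) (adjusted p = 0.0117). The zinc finger gene Zfp365, the sulfatase Sulf2 and the receptor Notch1 differed by -0.81, -0.68 and -0.53. Zfp365 and Notch1 each lost the call in 2 of the 6 fits that left out 1 sample. None of the 8 genes of DNA repair and nucleotide supply was called by limma (differences from -0.45 in Ercc5 to 0.11 in Ddb2), and in Ercc5 and Polk the homozygous samples lay wholly below the heterozygous ones.

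Of the BCL2 family, 1 of 15 measured genes was called, Bbc3. The effector Bax was 7.83, 7.94 and 7.88 in the heterozygous and 7.52, 7.35 and 7.43 in the homozygous samples, a difference of -0.45 (adjusted p = 0.00231) that fell short of the size limit. The survival genes Bcl2l1 and Mcl1 differed by -0.20 and -0.02 and were not called. Of 49 cell cycle genes, 1 was called, Mid1, a microtubule-associated ubiquitin ligase, at -0.59 ± 0.04 (SE) (adjusted p = 6.94e-05). In 18 of the 49 the homozygous samples lay wholly above the heterozygous ones, against 9.93% of all genes. Among genes averaging 3 or more, as all 49 did, 1645 of 12010 lay so. The differences were small, with a list median of 0.07. Rrm2, the ribonucleotide reductase subunit, differed by 0.26, Top2a, a topoisomerase, by 0.16 and Cdc25b, a CDK-activating phosphatase, by 0.33.

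Of the 20 p53 targets called lower, 10 (50%) held a p53 consensus match within 2.5 kb of the 5′ end, as did 9 of the 46 targets not called (19.6%), 11.4% of 22035 protein-coding genes, and 19 of 109 other protein-coding genes called lower (17.4%). With at most 1 mismatch the shares were 25%, 6.52%, 2.1% and 3.67%. The list names p53 targets, so its share against that of all genes says nothing about these data. The shares of called and uncalled targets were not compared by a test. The 6 printed sequences belong to genes with RA differences from -3.44 (Eda2r) to -0.79 (Psrc1). Matches were found in this window for none of Bbc3, Phlda3 and Mdm2, which says only that these letters are not in it.

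In ES cells 13 of these 20 targets were also called lower, against 6.29% of all genes, and the median difference of the 20 was -0.81, beside -0.80 after RA. Over all 66 measured targets, 21 were called lower and 1 higher in ES. The median of the 66 was -0.34 in ES, beside -0.26 after RA. The difference between the RA and ES effects was called for 8 of the 20, against 13.9% of all genes. The ES differences, unlike those after RA, ran with the GC content of the genes (r = -0.70 in ES and 0.000852 after RA, across 12010 genes, which are not replicates). RA against ES values are therefore also given with that trend removed. That fit held only genes averaging 3 or more after RA, and so not Zfp365 (RA mean 2.79). In it 7 of the 20 were called, against 1148 of 12010 genes. Cdkn1a, Perp and Sulf2 were called in both fits. Bbc3 (-0.65), Sesn2 (-0.70), Lrdd (-0.53) and Ptp4a3 (-0.55) were called only with the trend removed. Cdkn1a differed more after RA than in ES in both fits (-1.47, and -1.74 with the trend removed). Its heterozygous mean was 6.46 after RA and 7.49 in ES, and its homozygous mean 4.27 and 6.76. Perp (-0.76, -0.67) and Sulf2 (-0.55, -0.85) were alike in this, and Trp53 went the other way, with a smaller fall after RA (0.82, 0.62). The heterozygous Trp53 mean was 6.04 after RA and 7.05 in ES, and the homozygous mean 3.83 and 4.02. The call was lost with the trend removed for Eda2r, Ccng1, Trp53inp1, Phlda3 and Ak1. Phlda3 (0.50) and Ak1 (0.55) had smaller falls after RA, and their values became 0.01 and 0.22. Ccng1 (-0.48) and Trp53inp1 (-0.30) kept adjusted p-values under 0.1 by limma and missed only the size limit. Eda2r was at -0.26 (adjusted p = 0.278 by limma).

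In RA-treated ΔG cells 0 of the 20 targets were called lower, against 1.46% of all genes there, and their median difference was -0.08. Trp53 differed by 0.28, Eda2r by -0.26, Ccng1 by -0.19 and Cdkn1a by 0.01 in ΔG, and 5430416N02Rik by -2.75 (called lower). The ΔG and ΔPG tables were transformed separately, so these values stand side by side and the difference between lines was not tested.

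Endoderm genes were the other large group. Of 35 measured, 13 were lower in homozygous cells and 0 higher, against 0.605% and 0.241% of all genes; 24 of the 35 lay wholly below, against 8.87%, and the list median was -0.45. The mean rlog value over the 35 genes was 6.05 to 6.08 in the heterozygous and 5.54 to 5.68 in the homozygous samples. The counts of this list are not independent evidence of the direction, because the list was drawn up with earlier results of these data known. In bulk RNA, fewer cells of a type and less RNA per cell cannot be told apart.

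Of 12 endoderm transcription factors, 3 were lower, against 0.605% of all genes. Gata4 was 6.34, 6.41 and 6.35 in the heterozygous and 5.27, 5.80 and 5.65 in the homozygous samples, a difference of -0.80 ± 0.12 (SE) (adjusted p = 0.00682), and homozygous replicate 1 was the lowest. Foxq1, a forkhead factor, was 6.05, 5.91 and 5.87 in the heterozygous and 4.78, 5.18 and 5.07 in the homozygous samples (difference -0.93 ± 0.12 (SE), adjusted p = 0.00185). Sox17 was 5.67, 5.99 and 5.58 in the heterozygous and 5.14, 5.29 and 5.30 in the homozygous samples, a difference of -0.50 ± 0.12 (SE) that lost the call in 5 of the 6 fits that left out 1 sample. Gata6, the factor that starts the primitive endoderm program, was 7.08, 7.21 and 7.02 in the heterozygous and 6.79, 6.67 and 6.66 in the homozygous samples, with a difference of -0.40 ± 0.07 (SE) (adjusted p = 0.0149) that stayed under the size limit. Foxa1, Foxa2, Sox7 and Hnf4a differed by -0.18, -0.15, -0.10 and -0.50 and were not called.

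Of 19 extracellular matrix and adhesion genes, 4 were lower and 0 higher, against 0.605% and 0.241% of all genes, and 13 lay wholly below, against 8.87%. The 4 were chains of basement membrane proteins. Lama1, the laminin alpha chain of the early embryo, was 11.14, 11.19 and 11.18 in the heterozygous and 10.24, 10.16 and 10.24 in the homozygous samples (difference -0.95 ± 0.03 (SE), adjusted p = 1.29e-07). Col4a1, a type IV collagen chain, was 11.23, 11.24 and 11.19 in the heterozygous and 10.27, 10.32 and 10.32 in the homozygous samples (difference -0.92 ± 0.03 (SE)), and its neighbour and partner Col4a2 differed by -0.82 ± 0.04 (SE). Lamb1 differed by -0.59 ± 0.02 (SE). In these 4 genes the differences were several times the range within either genotype. Lamc1 (-0.46, adjusted p = 1.46e-05) and Sparc (-0.41, adjusted p = 2.08e-05) also had non-overlapping genotypes but stayed under the size limit.

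Of 23 extraembryonic endoderm markers, among them these 4 genes, 10 were lower and 0 higher, against 0.605% and 0.241% of all genes. Cubn, the cubilin receptor that takes up nutrients in visceral endoderm, was 9.68, 9.69 and 9.67 in the heterozygous and 8.36, 8.48 and 8.48 in the homozygous samples, 2.36-fold lower in homozygous cells (difference -1.24 ± 0.04 (SE), adjusted p = 1.78e-07). Its co-receptor gene Amn differed by -0.45 and was not called. Ttr, transthyretin, was 5.45, 5.34 and 5.46 in the heterozygous and 4.18, 4.64 and 4.60 in the homozygous samples (difference -0.94 ± 0.14 (SE)). The endocytic adaptor Dab2, the proteoglycan Srgn, the activin-binding protein Fst and the pepsinogen Pga5 differed by -0.60, -0.94, -0.90 and -0.76, and Pga5 lost the call in 2 of the 6 fits that left out 1 sample. The lipoprotein genes Apoe and Apob and the receptor Lrp2 differed by 0.11, -0.18 and -0.10 and were not called.

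**Figure D4:**
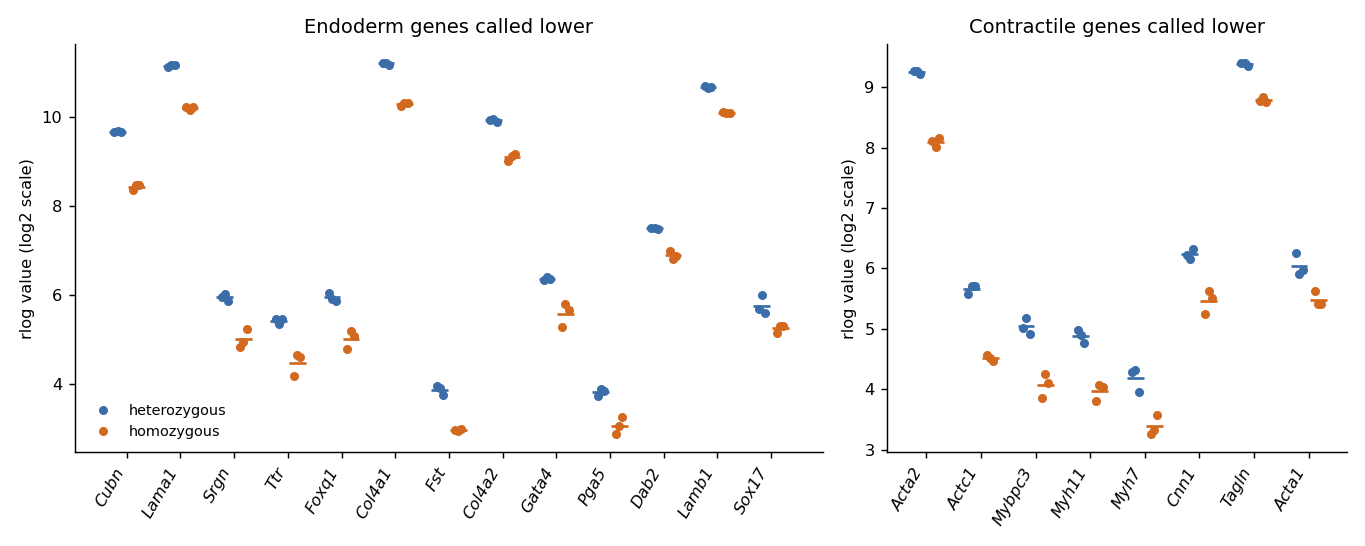
rlog values (y axes, log2 scale) of the 13 endoderm genes (left) and 8 contractile genes (right) called lower; points are single RA-treated samples (blue heterozygous, orange homozygous), bars are means of 3. The orange points lie below the blue ones in every gene, with Cubn (-1.24) and Acta2 (-1.16) the largest differences.

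Heterozygous RA values lay above heterozygous ES values for these endoderm genes, except Fst and Pga5, whose samples overlapped. In ES 2 of the 13 were called lower in homozygous cells, against 6.29% of all genes, Col4a1 (-0.73) and Col4a2 (-0.67). The median ES difference of the 13 was -0.06, beside -0.90 after RA. The 13 were chosen by their difference after RA, which favours larger values there. Over all 35 measured endoderm genes the median was -0.04 in ES and -0.45 after RA. The difference between the RA and ES effects was called for 9 of the 13, against 13.9% of all genes. With the GC trend removed it was called for 12, against 1148 of 12010 genes. Fst (-1.18, and -1.06 with the trend removed), Srgn (-1.06, -0.77) and Cubn (-1.04, -0.89) had the largest such values before the trend was removed. In RA-treated ΔG cells 6 of the 13 were also called lower, against 1.46% of all genes there: Cubn (-1.15), Lama1 (-1.03), Srgn (-1.0), Dab2 (-0.70), Col4a1 (-0.62) and Col4a2 (-0.58). The rest were uncalled there. Lamb1 (-0.49), Gata4 (-0.48) and Foxq1 (-0.40) had adjusted p-values under 0.1 by limma and missed only the size limit. Sox17 and Pga5 were at -0.21 and -0.15, and Ttr and Fst at 0.31 and 0.18. The plot of 3 comparisons sets these values beside those of the p53 targets.

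**Figure D5:**
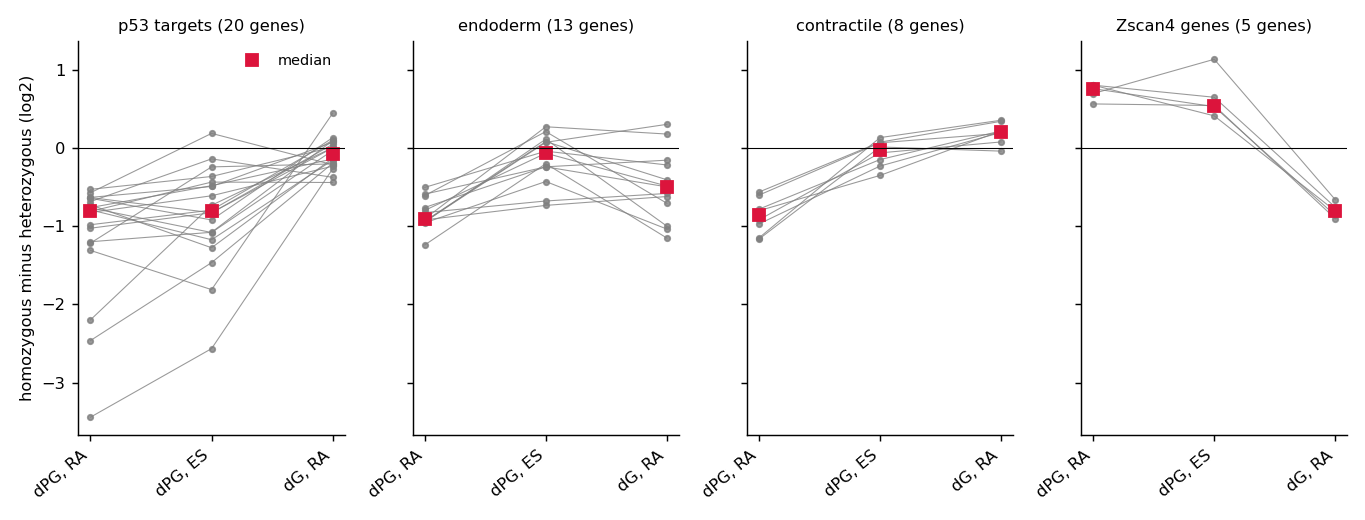
Homozygous minus heterozygous differences (y axis, log2) of the genes called after RA in ΔPG, in RA-treated ΔPG, DMSO-treated ΔPG (ES) and RA-treated ΔG cells; grey lines join the values of 1 gene and red squares are medians. The p53 target median is -0.80, -0.81 and -0.08, the endoderm median -0.90, -0.06 and -0.49, the contractile median -0.86, -0.02 and 0.21, and the Zscan4 median 0.76, 0.55 and -0.80. Genes were chosen by the first comparison, which favours large values there. Medians over all measured list members, in the same order, are -0.26, -0.34 and -0.01 for p53 targets and -0.45, -0.04 and -0.21 for endoderm. They are -0.21, -0.10 and 0.04 for contractile and 0.73, 0.54 and -0.79 for Zscan4 genes.

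Contractile genes of smooth and cardiac muscle, a list drawn up after the values were seen, held 8 called lower of 29 measured and 0 higher, against 0.605% and 0.241% of all genes. Acta2, smooth muscle alpha-actin, was 9.27, 9.27 and 9.22 in the heterozygous and 8.10, 8.01 and 8.16 in the homozygous samples (difference -1.16 ± 0.04 (SE), adjusted p = 7.13e-07). Actc1, cardiac alpha-actin, was 5.58, 5.70 and 5.71 in the heterozygous and 4.56, 4.52 and 4.47 in the homozygous samples (difference -1.15 ± 0.10 (SE), adjusted p = 0.000145). In heterozygous ES samples their means were 4.13 and 2.37. The smooth muscle genes Tagln (-0.60), Cnn1 (-0.78) and Myh11 (-0.92) and the sarcomere genes Mybpc3 (-0.97), Myh7 (-0.80) and Acta1 (-0.56) were lower too. Acta1 and Myh7 lost the call in 3 of the 6 fits that left out 1 sample. In ΔG 0 of the 8 were called lower (median 0.21). Over all 29 genes, not only those called, the median was -0.21 after RA, -0.10 in ES and 0.04 in ΔG. The difference between RA and ES effects was called for 7 of the 8, against 13.9% of all genes. With the GC trend removed it was called for 8, against 1148 of 12010 genes. These 8 too were chosen by their difference after RA.

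Acta2 and Actc1 were also the only called genes among 30 of the mesoderm list, whose primitive streak genes such as T (0.11) were not called. Of 10 fibroblast markers, 1 was called, Col3a1, type III collagen, at -0.67 ± 0.05 (SE). The other fibrillar collagens Col1a1 and Col1a2 differed by -0.01 and 0.23, and the mean rlog value over the 10 markers was 4.47 to 4.58 in heterozygous and 4.38 to 4.52 in homozygous samples, with 0 of them at 0. Of 8 blood and immune markers 0 were called by limma (the alpha globin gene Hba-a1 differed by 0.01); 2 were at 0 in every sample, and the mean over the other 6 was -0.80 to -0.71 and -0.83 to -0.66. The part of other cell types in these results was not tested.

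Pluripotency genes differed little. Klf4, a naive pluripotency factor, was the single called gene of 26, at 6.09, 6.20 and 6.30 in the heterozygous and 5.39, 5.69 and 5.68 in the homozygous samples (difference -0.61 ± 0.11 (SE), adjusted p = 0.0126). Its ES difference was 0.00, and the RA effect differed from the ES effect (-0.61, -0.91 with the GC trend removed). Nanog (-0.05) and Pou5f1 (-0.14) were not called, and Sox2 was 6.41, 6.37 and 6.41 in the heterozygous and 7.03, 6.77 and 6.64 in the homozygous samples, above the heterozygous values in each homozygous sample but under the size limit (0.42 ± 0.09 (SE), adjusted p = 0.0466). The mean over the 26 genes was 6.27 to 6.30 in heterozygous and 6.22 to 6.38 in homozygous samples.

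Neural and patterning genes showed scattered calls in both directions. Of 32 measured neural genes, Msx1, a homeobox factor of the dorsal neural tube and BMP target, was higher (0.53 ± 0.10 (SE), a call lost in 3 of the 6 fits that left out 1 sample), and Nefl, neurofilament light chain, was lower (-0.65 ± 0.10 (SE)). Pax6 differed by 0.05 and was not called, and Sox1 was not analysed here. Ednrb, the endothelin receptor of neural crest, was higher, at 5.17, 5.20 and 5.00 in the heterozygous and 5.67, 5.72 and 5.67 in the homozygous samples (difference 0.56 ± 0.09 (SE), adjusted p = 0.0109). Of 34 Hox genes, Hoxb1, the early RA-induced gene at the start of its cluster, was 5.62, 5.48 and 5.43 in the heterozygous and 6.03, 6.06 and 6.16 in the homozygous samples (difference 0.57 ± 0.09 (SE), adjusted p = 0.00628), and Hoxb13, at the far end, was 6.56, 6.80 and 6.82 in the heterozygous and 6.05, 6.23 and 5.98 in the homozygous samples (difference -0.64 ± 0.10 (SE)). So the 2 ends of the Hoxb cluster were called in opposite directions, while the other 8 Hoxb genes were not called. In ΔG, Hoxb1 and Hoxb13 differed by 0.14 and 0.45.

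Of 35 genes of RA receptors, metabolism and response, 0 were called by limma at these limits, and the list median was 0.07. Crabp2 had the smallest adjusted p, at 8.47, 8.51 and 8.51 in the heterozygous and 8.82, 9.0 and 8.99 in the homozygous samples (difference 0.44 ± 0.05 (SE), adjusted p = 0.00103), and Cyp26b1, an RA-degrading enzyme, differed by -0.47 (adjusted p = 0.00347). Stra8, a gene named for its induction by RA, differed by 0.17. Of the trophectoderm list, 0 of 11 were called, with Krt8 at -0.28 (adjusted p = 0.000745), Cdx2 at 0.04 and Hand1 at -0.30. The epiblast list (0 of 10; Cldn6 -0.25) and the germline list (0 of 12) had no call either.

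Signalling lists held at most 2 called genes each. In the FGF and ERK list of 37 genes, the ligand Fgf10 was lower (-0.67 ± 0.16 (SE), adjusted p = 0.0608) and the ETS factor Etv1 was higher (0.56 ± 0.13 (SE), adjusted p = 0.0588). In the Wnt list of 40, the ligand Wnt5a (-0.58 ± 0.14 (SE), adjusted p = 0.0724) and the secreted Wnt inhibitor Dkk1 were lower. Dkk1 was 5.71, 5.69 and 5.80 in the heterozygous and 5.17, 5.17 and 5.12 in the homozygous samples (difference -0.58 ± 0.09 (SE), adjusted p = 0.00559), with each genotype tightly grouped. Fgf10, Etv1 and Wnt5a rest on the full set of samples: the first 2 lost the call in 5 and Wnt5a in 6 of the 6 fits that left out 1 sample.

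In the BMP list of 26, the extracellular inhibitor Fst was 3.93, 3.89 and 3.74 in the heterozygous and 2.96, 2.93 and 2.97 in the homozygous samples (difference -0.90 ± 0.14 (SE), adjusted p = 0.00576) and Msx1 was higher, while the ligands and receptors were not called. Notch1, lower in homozygous cells, was 6.39, 6.39 and 6.67 in the heterozygous and 5.89, 5.98 and 6.00 in the homozygous samples (difference -0.53 ± 0.09 (SE)) and was 1 of 20 Notch genes. Ankrd1, a YAP target and muscle ankyrin protein, was 5.10, 5.33 and 5.32 in the heterozygous and 4.05, 4.87 and 4.59 in the homozygous samples, with homozygous replicate 1 the lowest, and was the 1 called gene of 11 in the Hippo list (-0.74 ± 0.19 (SE), adjusted p = 0.0763), a call lost in 5 of the 6 fits that left out 1 sample. Without that replicate its difference was -0.52. Eda2r was the 1 called gene of 16 in the TNF and NF-kB list. Lists without a call and their members with the smallest adjusted p were Hedgehog (Hhip, the Hedgehog-binding inhibitor, 0.43), LIF and JAK/STAT (Lifr, -0.21), and ephrin and semaphorin (Nrp1, -0.24). Those lists had 10, 12 and 21 measured genes. The Nodal and TGF-beta list of 24 measured genes also held 0 calls by limma.

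Among the 53 genes higher in homozygous cells, Zscan4 genes, which mark the transient 2-cell-like state of ESC cultures, were called repeatedly. Of 8 genes of the 2-cell-like list 4 were higher, against 0.241% of all genes: Zscan4c, Zscan4d, Zscan4f and Usp17l5. Of 6 measured Zscan4 genes, a set drawn up after the values were seen, 5 were higher. Zscan4d was 7.01, 6.92 and 6.97 in the heterozygous and 8.01, 7.80 and 7.52 in the homozygous samples (difference 0.81 ± 0.10 (SE), adjusted p = 0.00213), and Zscan4c was 6.45, 6.29 and 6.33 in the heterozygous and 7.36, 7.02 and 7.12 in the homozygous samples (difference 0.81 ± 0.09 (SE), adjusted p = 0.000947). Zscan4e, Zscan4f and Zscan4-ps2 differed by 0.76, 0.70 and 0.57, and Usp17l5, another gene of that state, by 0.53. Usp17l5 lost the call in 2 and Zscan4f in 1 of the 6 fits that left out 1 sample. These genes have near-identical copies, so reads may be shared among them and their calls are not independent. Dux, the factor that activates the state, differed by 0.25 and was not called. In ES 4 of the 5 were also called higher, against 6.87% of all genes. In RA-treated ΔG cells all 5 were called lower in homozygous cells (median -0.80). Of all 53 genes higher in ΔPG after RA, 23 were called lower in ΔG after RA, against 1.46% of all genes there, and 1 was called higher, against 0.676%. Of the 133 lower genes, 19 were called lower and 4 higher in ΔG.

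The largest single rises were in genes of uncertain assignment. AY036118, a pseudogene-class transcript related to ribosomal RNA, was 9.19, 9.22 and 9.23 in the heterozygous and 10.39, 10.41 and 10.46 in the homozygous samples (difference 1.21 ± 0.03 (SE), adjusted p = 4.56e-08), and was also higher in homozygous ES (1.22) and ΔG RA samples (1.74). The ribosomal protein gene Rps16 (0.83 ± 0.03 (SE)) and its pseudogene Rps16-ps2 (0.90 ± 0.16 (SE)) share sequence and were higher together, as they were in ES (0.98 and 1.15). Rps16-ps2 lost the call in 1 of the 6 fits that left out 1 sample. Klhl13, a substrate adaptor of a cullin ubiquitin ligase on the X chromosome, was 8.70, 8.68 and 8.80 in the heterozygous and 9.67, 9.54 and 9.47 in the homozygous samples (difference 0.83 ± 0.05 (SE), adjusted p = 2.63e-05), with a larger difference in ES (1.68). The other 3 of the 10 largest rises that are in no list were 1500012F01Rik (0.88), Gm10696 (0.86) and Gm5662 (0.76).

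Of the 15 largest falls, 5 were of genes in no list. Inpp5d, the inositol phosphatase Ship1, was 6.31, 6.21 and 6.48 in the heterozygous and 4.68, 4.17 and 4.28 in the homozygous samples (difference -1.96 ± 0.14 (SE), adjusted p = 5.8e-05), with a smaller difference in ES (-0.59). Ano3, a membrane protein of the anoctamin family, was 3.43, 3.45 and 3.70 in the heterozygous and 2.1, 1.88 and 1.82 in the homozygous samples (difference -1.60 ± 0.16 (SE)). Pcdh7, a protocadherin, was 4.91, 5.08 and 5.03 in the heterozygous and 3.16, 4.21 and 4.13 in the homozygous samples, with homozygous replicate 1 far below the other 2, and its difference of -1.17 was -0.84 without that sample. It lost the call in 1 of the 6 fits, that without heterozygous replicate 1. Habp2, a serine protease, was 3.17, 2.64 and 3.13 in the heterozygous and 1.54, 1.6 and 2.32 in the homozygous samples, and lost the call in 4 of the 6 fits that left out 1 sample. D630023F18Rik differed by -1.27 ± 0.15 (SE).

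On the Y chromosome 5 of 8 measured genes were lower, against 0.605% of all genes, in a list drawn up after the values were seen: Ube1y1 (-0.97 ± 0.09 (SE)), Ddx3y (-0.82 ± 0.05 (SE)), Uty (-0.74 ± 0.08 (SE)), Zfy1 (-0.59 ± 0.14 (SE)) and Eif2s3y (-0.51 ± 0.10 (SE)). Ddx3y, an RNA helicase, was 8.43, 8.52 and 8.5 in the heterozygous and 7.70, 7.63 and 7.67 in the homozygous samples. Kdm5d and Usp9y differed by -0.23 and -0.18 and were not called. In ES, Ube1y1 differed by -1.30 and was called lower. Ddx3y (0.03), Uty (0.13), Eif2s3y (0.46) and Zfy1 (0.47) were not called there. In RA-treated ΔG cells Uty was called lower (-0.52), and Ube1y1 (-0.19), Ddx3y (-0.27), Zfy1 (-0.40) and Eif2s3y (-0.41) were not called. The difference between RA and ES effects was called for 4 of the 5, against 13.9% of all genes, and for 0 of the 5 with the GC trend removed. Median differences of the autosomes and the X chromosome ran from -0.06 (chromosome 6) to 0.02 (chromosome 4). Zfy1 and Eif2s3y lost the call in 5 and 3 of the 6 fits that left out 1 sample. The metallothionein genes Mt1 and Mt2, which bind zinc, were lower (-0.59 ± 0.07 (SE) and -0.62 ± 0.09 (SE)), also in a list made after the values were seen.

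Genes of hypoxia and glycolysis lay higher by small amounts: in 7 of 12 the homozygous samples were wholly above the heterozygous ones, against 9.93% of all genes. Among genes averaging 3 or more, 1645 of 12010 lay so. At the size limit 0 of the 12 were called by limma. The glucose transporter gene Slc2a1 differed by 0.46 (adjusted p = 2.34e-05) and Pgk1, phosphoglycerate kinase, by 0.31 (adjusted p = 3.32e-05). Of 14 mitochondrially encoded transcripts 0 were called, and 9 lay wholly above, with mt-Rnr1, the small ribosomal RNA of mitochondria, at 0.28 ± 0.02 (SE). Their mean rlog value was 11.06 to 11.10 in heterozygous and 11.15 to 11.25 in homozygous samples, and in ES the median difference of the mitochondrial genome was 2.03.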

How the data were processed

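Libraries were stranded, ribosomal RNA-depleted total RNA. Per the labels and the methods, the authors aligned reads to NCBI37/mm9 with TopHat2 2.1.0, removed duplicates with Picard, counted reads per gene name on the reverse strand with HTSeq 0.6.0 and deposited rlog values (log2 scale) from DESeq2 1.14.1, separately for the ΔPG and ΔG samples. Removing duplicates can compress abundant genes. Genes with identical values in all samples were left out (21979 of 33924 tested). Differences were tested with limma 3.58.1 (R 4.3.3, variance trend, Benjamini-Hochberg adjustment) over the 6 RA samples. A gene was called at an adjusted p under 0.1 and a difference over 0.5. RA against ES effects were fitted over 12 ΔPG samples. Sequences were searched in Python 3.11.15. The fits were tested on simulated data.

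Members and gene lists were chosen with earlier results of these data known, and 4 lists (contractile, Zscan4, Y chromosome, metallothionein) after values were seen. Named genes are the 15 largest falls, the 10 largest rises, called list members, the smallest adjusted p of lists without a call, and lineage and locus genes; list members with only an RA against ES call are given as counts, and further list members named as uncalled examples were chosen after their values were seen. Alternatives covered thresholds, filters, scaling, the variance trend, GC content, the replicate block and each sample left out. Chromatin contact data were not used here. A gene named by this rule is not reported here.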

Additional observations from a re-analysis of the deposited data

Results flagged for a closer look

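The RA effect differed from the ES effect, by limma with Benjamini-Hochberg adjustment over the 12 ΔPG samples, for 29 of the genes named above both before and after the GC trend of the ES comparison was removed. Over all genes 13.9% were called before the trend was removed, and 1148 of 12010 after. Of the 103 named genes, 82 were called after RA, and choosing genes by that difference favours larger values there. Values are the RA difference minus the ES difference (log2), with the value after the trend was removed in brackets. Among p53 genes these were Cdkn1a -1.47 (-1.74), Perp -0.76 (-0.67), Sulf2 -0.55 (-0.85) and Trp53 0.82 (0.62). Among endoderm genes they were Fst -1.18 (-1.06), Srgn -1.06 (-0.77), Cubn -1.04 (-0.89), Ttr -1.02 (-0.87), Foxq1 -1.02 (-1.47), Dab2 -0.82 (-0.52), Gata4 -0.73 (-1.12), Lama1 -0.53 (-0.77) and Pga5 -0.52 (-0.75). Among contractile genes they were Actc1 -1.29 (-1.46), Acta2 -1.18 (-1.18), Myh11 -0.86 (-1.07), Mybpc3 -0.74 (-1.10), Tagln -0.67 (-0.87), Acta1 -0.64 (-1.01) and Cnn1 -0.64 (-0.76). The others were mt-Rnr1 -1.86 (-0.98), Inpp5d -1.37 (-1.52), Pcdh7 -1.30 (-1.40), Mt1 -0.88 (-1.23), Klhl13 -0.85 (-0.52), Ankrd1 -0.82 (-0.70), Col3a1 -0.76 (-0.55), Wnt5a -0.67 (-0.59) and Klf4 -0.61 (-0.91). A further 13 named genes passed this test only before the trend was removed, among them Eda2r, Ccng1 and Mdm2. Another 3 passed before, and with a mean below 3 were not fitted with the trend removed. With the trend removed, Ccng1 (-0.48, adjusted p = 0.000104 by limma) and Mdm2 (-0.32, adjusted p = 0.00819) missed only the size limit. Eda2r was at -0.26 (adjusted p = 0.278). Groups of 3 samples were not tested for outlying samples.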

How the results depend on the processing

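At stricter limits (adjusted p under 0.05, fold over 1.5), 34 genes were higher, against 53. With an adjusted p under 0.1 alone, 519 were higher and 487 lower, against 53 and 133, and 31 p53 targets were lower. Removing the GC trend, among genes averaging 3 or more, gave 1148 genes, against 3056, whose RA effect differed from the ES effect, a setting chosen after the data were seen. Replicate numbers did not pair the samples (correlations of same-numbered deviations -0.00649, -0.00283 and -0.0176). With the replicate block, 27 genes were higher and 85 lower, with 19 p53 targets and 11 endoderm genes. Leaving out 1 sample gave 34 to 57 higher, the lowest without homozygous replicate 2, 91 to 121 lower, 19 to 20 p53 targets, 11 to 13 endoderm genes and 2987 to 3150 RA against ES calls. Of 82 named genes called, 64 were called in all 6 such fits, and none turned direction under the alternatives tried. The sign turned for 4 uncalled genes when 1 sample was left out: Cdx2 (-0.060 to 0.18, and -0.02 without heterozygous replicate 2), T (-0.035 to 0.22), Nanog (-0.11 to 0.0015) and Pax6 (-0.032 to 0.14). It also turned for the RA against ES value of Ddx3y, to 0.023 with the GC trend removed. The cause was not tested. Read depth is unknown, so the precision of low genes cannot be given, and rlog shrinks their differences.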
